A study of Mus musculus with 12 samples.

Results

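The comparison described here set livers of male mice that ate an obesogenic diet after weaning against livers of male mice that ate a control diet, with the diet of the dam held as a covariate. Group names give the dam's diet first and the offspring's second, C standing for control and O for obesogenic diet. Livers of obesogenic diet were CO (control dams, obesogenic offspring diet, 2 libraries) and OO (obesogenic dams, obesogenic offspring diet, 3 libraries), and they were set against CC (control dams, control offspring diet, 3 libraries) and OC (obesogenic dams, control offspring diet, 3 libraries). In all, 11 libraries entered, 5 of obesogenic and 6 of control offspring diet, where the labels list 12 samples, 3 in each group; the third CO sample was not analysed here. Every animal was a wild-type C57BL/6 male of postnatal day 84 (12 weeks) that was fasted before it was killed. The control diet was a chow with 7% simple carbohydrate and 3% lipid. The obesogenic diet held 10% simple carbohydrate and 20% lipid and was supplemented with condensed milk, which held 55% simple carbohydrate with 8% each of lipid and protein. Dams were kept on their diet until weaning at day 21, when male pups were moved to 1 of the 2 diets. The model is therefore a whole-diet exposure in 1 sex of 1 strain, and the labels do not say which offspring shared a dam. Of 12086 genes measured by RNA sequencing, 6 have a value of exactly 0 throughout a group and were set aside, which leaves 12080.

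The liver handles fuel, nitrogen, bile acids, iron and foreign compounds, and its hepatocytes divide this work along the path of the blood. Hepatocytes near the portal vein carry most urea synthesis and amino acid breakdown, and those near the central vein carry more of the drug and bile acid chemistry. Type I interferons signal through a complex that holds STAT2 and IRF9 and binds a promoter element shared by many antiviral genes. Hepcidin, made from Hamp, is the hormone by which the liver limits the export of iron into blood, and BMP6 from liver endothelial cells is its main inducer.

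Values are scaled counts, gene read counts divided by 1 factor per library. Recovered depth ran from 3976160 reads in OO.1 to 27837604 in OO.0, and 3 reads correspond to a value of 0.1 to 0.829 depending on the library, a floor for counting error only. All 11 columns carry the same pool name in the file header, so no batch could be formed from it. The summed level of 18 exocrine pancreas markers ran from 17.48 to 4558 in livers of obesogenic diet and from 7.601 to 7193 in livers of control diet, with the high values in OC.0, CO.1 and CC.1. The acute phase list stood 1.52 above the control-diet mean (log2) in CO.1 and 0.71 above it in OC.1. The 13 measured hepatocyte markers summed to between 60360 and 76720 in livers of obesogenic diet and to between 68680 and 82710 in livers of control diet. Alb was not analysed here. Many list counts below move by over 1.5 times without OC.0 and CO.1 or without OC.1 and CO.1, and those of the main lists are given again.

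In what follows a gene is called, and is said to have risen or fallen, where limma's moderated test on log2(value + 0.5) gave a Benjamini-Hochberg adjusted p under 0.05 over all 12086 genes. The obesogenic offspring diet called 400 of 12080 genes (3.31%), of which 234 were higher (1.94%) and 166 lower (1.37%). The median log2 difference of the called genes was 0.85 among the higher ones and -0.67 among the lower ones, and 92 and 49 of them differed by at least 2-fold. No overlap between libraries of the 2 offspring diets, in the same direction under control and under obesogenic dams, was found for 193 of the 234 and 133 of the 166. Over all genes the same separation held for 2.96% upward and 2.84% downward. The called genes were picked by p from the same libraries, so their separation is no separate support. The calls rest on few livers: the count was 59 without OC.0 and CO.1, 207 without OC.1 and CO.1, 237 without OO.0 and OO.1, and between 179 (without CO.0) and 230 (without OC.0) when CO.0, CO.1, CC.0, CC.2 or OC.0 was left out alone. Of the 400, 137 were called whichever single library was left out. Of the 143 called genes that belong to a list below, 72 stayed called whichever single library was left out, 39 without OC.0 and CO.1 and 91 without OC.1 and CO.1, so many single calls below end when 1 or 2 livers are dropped. An unadjusted p under 0.05 was found for 2240 of the 12080 genes (18.5%).

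Most interferon-stimulated genes, the antiviral genes that interferons switch on, rose together. Of 65 measured members of the list, 47 were called higher (72.3%, against 1.94% of all genes) and 0 were called lower. The list's median log2 difference was 0.90, against 0.00 over all genes, and it was 0.90 for CO against CC and 0.91 for OO against OC. Both simple differences were above 0 for 62 of the 65, against 31.3% of all genes, and 44 showed no overlap under either kind of dam. In each library the list's median level, as log2 against the mean of the 6 control-diet libraries, was 0.94 and 0.68 in CO livers, against -0.29, 0.13 and -0.09 in CC livers, and 1.12, 0.77 and 1.05 in OO livers, against -0.09, 0.32 and 0.07 in OC livers. Every liver of obesogenic diet stood above every liver of control diet. The count of called members was 36 to 50 with 1 library left out and 21 without OC.0 and CO.1, and 33 members were called whichever single library was left out.

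The signalling genes of this group were mostly called. Irf7, which amplifies the interferon response, averaged 46.5 ± 9.41 in livers of obesogenic diet and 22.2 ± 6.28 in livers of control diet (SD, n = 5 and 6), with a log2 difference of 1.05 ± 0.18 (SE, adjusted p = 0.00981). Irf9, the DNA-binding partner of STAT2, rose by 0.73 ± 0.11 (log2, SE, adjusted p = 0.00669), and Stat2 by 0.44 ± 0.11 (adjusted p = 0.0414). Irf1 did not pass the test and had a log2 difference of -0.15 ± 0.17 (adjusted p = 0.705). Usp18, the protease that removes ISG15 and damps receptor signalling, had 29.5 and 19.4 in CO livers, against 9.04, 9.91 and 8.29 in CC livers, and 41.8, 14.9 and 42 in OO livers, against 5.76, 10.3 and 7.34 in OC livers. It rose by 1.66 ± 0.26 (adjusted p = 0.00718), with OO.1 the lowest of the OO livers and still above all OC livers.

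Many effector genes rose. Ifit1, which binds viral RNA lacking a methylated cap, had 30.3 and 24 in CO livers, against 3.8, 9.72 and 6.5 in CC livers, and 34, 19.1 and 44.4 in OO livers, against 5.64, 10.9 and 5.73 in OC livers. Its log2 difference was 2.03 ± 0.26 (adjusted p = 0.00209), a 4.09-fold rise, and it was 2.03 under control dams and 2.04 under obesogenic dams. Isg15, a ubiquitin-like protein, had 8.33 and 11.6 in CO livers, against 2.69, 3.55 and 2.35 in CC livers, and 12.6, 6.08 and 13.6 in OO livers, against 3.29, 4.26 and 3.82 in OC livers, and Ifi44 had 12.8 and 7.42 in CO livers, against 2.22, 3.55 and 2.21 in CC livers, and 12.2, 9.4 and 10.3 in OO livers, against 2.7, 4.26 and 3.23 in OC livers. Both rose without overlap between diets, by 1.46 ± 0.21 (adjusted p = 0.00369) and 1.61 ± 0.18 (adjusted p = 0.000845). Zbp1, a sensor of left-handed nucleic acid that can start cell death, averaged 15 ± 3.79 in livers of obesogenic diet and 3.98 ± 1.61 in livers of control diet (SD, n = 5 and 6), with a log2 difference of 1.84 ± 0.24 (SE, adjusted p = 0.00209). Adar, the RNA-editing enzyme, had the smallest p in the list with a log2 difference of 0.73 ± 0.07 (SE, adjusted p = 0.00056) and 45.2 and 44.3 in CO livers, against 29.6, 27.1 and 26.7 in CC livers, and 49, 42 and 48 in OO livers, against 26.5, 26.5 and 28 in OC livers. The 5 livers of obesogenic diet lay close together, as did the 6 livers of control diet. Rnf213, Trim30a and Xaf1 rose by 1.08, 1.05 and 1.33 (adjusted p = 0.000713, 0.00112 and 0.00118).

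The RNA sensors Ddx58 (RIG-I) and Ifih1 (MDA5) rose by 0.69 ± 0.12 (adjusted p = 0.00951) and 0.88 ± 0.15 (adjusted p = 0.00945). The oligoadenylate synthetases Oas1a, Oas2, Oas3 and Oasl2, which activate an antiviral RNase or resemble those that do, rose by 1.21, 1.5, 1.15 and 1.18 (adjusted p = 0.0238, 0.0137, 0.00784 and 0.00203). Of these 4, Oas1a overlapped between OO and OC livers. Among interferon-inducible GTPases, Gbp11, the list member with the largest difference, had 56.3 and 17.7 in CO livers, against 3.49, 12 and 2.21 in CC livers, and 12.6, 20.7 and 16.7 in OO livers, against 3.41, 8.82 and 3.23 in OC livers. It rose by 2.13 ± 0.43 (adjusted p = 0.019). Iigp1 averaged 648 ± 106 in livers of obesogenic diet and 319.9 ± 81 in livers of control diet (SD, n = 5 and 6), with a log2 difference of 1.03 ± 0.18 (SE, adjusted p = 0.00993). Members that missed the threshold include Ifit2 (0.90, adjusted p = 0.0588), Bst2 (0.49, adjusted p = 0.0635), Mx1 (0.65, adjusted p = 0.133) and the chemokine Cxcl10 (0.89, adjusted p = 0.205), whose log2 difference was 0.19 under control dams and 1.46 under obesogenic dams. Ifit3 and Ifit3b, the Gbp genes and the Oas genes have near-identical copies, and how the authors' counting divided reads between them is not known, so single values in these families are uncertain.

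**Figure D1:**
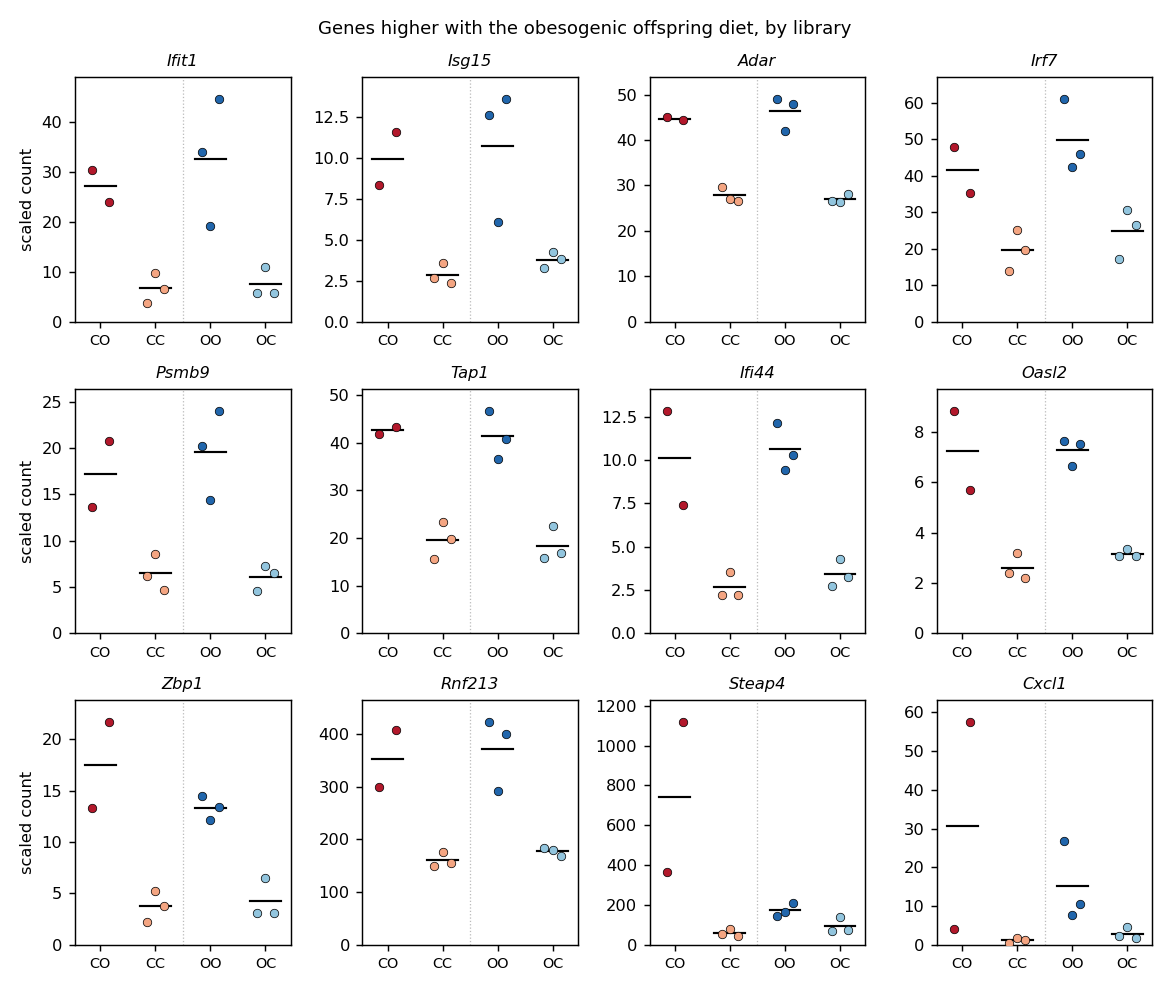
Scaled count (vertical axis, linear from 0) of 12 genes that were higher with the obesogenic offspring diet in each of the 11 libraries, by group (CO, CC, OO, OC). Points are libraries, horizontal lines are group means and the dotted line separates control from obesogenic dams. In Ifit1, Isg15, Adar and Tap1 every liver of obesogenic diet lies above every liver of control diet, and in Steap4 and Cxcl1 CO.1 stands far above the rest at 1116 and 57.4.

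Because these genes moved together, the promoters were read for the element that the STAT2 and IRF9 complex binds. RefSeq promoters of build GRCm38.p6, 250 bases before to 50 after each gene's start, were at hand for 9179 of the genes tested. The core searched was GAAANNGAAA on both strands (TTTCNNTTTC on the other), where N is any base. It was present in 19 of the 35 called list members with a promoter in the table (54.3%), in 24 of 50 measured members (48.0%), in 34 of 181 genes called higher (18.8%), in 1 of 130 called lower (0.769%) and in 294 of all 9179 (3.2%). The 181 include the 35 called list members, and the 34 matches include their 19, so these shares overlap. The list was made of genes known to respond to interferon, so its share is not a separate observation about diet. A match is a description of the letters in this window and not evidence of binding. The 5 called members with the largest differences that hold a match, apart from Ifit3b, a near copy of Ifit3, are shown as the members with a match that rose most, 5′ to 3′ on the gene's own strand, with each match in capitals. Overlapping matches run together.
Ifit1 (chr19:34640765-34640833, plus strand): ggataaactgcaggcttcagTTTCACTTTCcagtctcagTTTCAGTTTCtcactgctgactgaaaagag
Isg15 (chr4:156200855-156200916, minus strand): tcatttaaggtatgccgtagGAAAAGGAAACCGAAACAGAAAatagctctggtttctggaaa
Ifit3 (chr19:34583353-34583436, plus strand): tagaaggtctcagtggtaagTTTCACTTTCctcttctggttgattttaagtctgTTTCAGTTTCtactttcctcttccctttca
Gbp3 (chr3:142559979-142560034, plus strand): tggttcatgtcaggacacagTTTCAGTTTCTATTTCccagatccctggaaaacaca
Oas1a (chr5:120907510-120907565, minus strand): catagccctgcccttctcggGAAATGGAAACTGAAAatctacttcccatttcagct
The first match began 104 bases before the annotated start in Ifit1, 78 in Isg15, 156 in Ifit3, 45 in Gbp3 and 20 in Oas1a. These 5 genes differed by 2.03, 1.46, 1.39, 1.24 and 1.21 (log2).

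A few genes of class I antigen presentation rose. Of 25 measured members, 4 were called higher (16%, against 1.94% of all genes) and 0 lower. Tap1, a subunit of the peptide transporter into the endoplasmic reticulum, had 41.8 and 43.2 in CO livers, against 15.5, 23.4 and 19.8 in CC livers, and 46.6, 36.5 and 40.7 in OO livers, against 15.7, 22.5 and 16.9 in OC livers, with a log2 difference of 1.14 ± 0.12 (SE, adjusted p = 0.000756). Psmb9, an immunoproteasome subunit, averaged 18.6 ± 4.43 in livers of obesogenic diet and 6.3 ± 1.54 in livers of control diet (SD, n = 5 and 6), with a log2 difference of 1.48 ± 0.19 (SE, adjusted p = 0.00209). Tap2 and Psmb8, their partners, rose by 0.76 ± 0.14 (adjusted p = 0.013) and 0.79 ± 0.17 (adjusted p = 0.0252). The class I heavy chain genes H2-K1 and H2-D1 had log2 differences of -0.03 and 0.12 and did not pass the test (adjusted p = 0.903 and 0.582). The 31 constitutive proteasome genes held 0 calls by limma, edgeR or DESeq2 and none with an unadjusted p under 0.05, with Psma1 at 0.13 (adjusted p = 0.417) and Psmc4 at -0.13 (adjusted p = 0.418). With 1 library left out the antigen presentation list held 3 to 8 calls, with 2 when OC.0 and CO.1 were left out and 8 without OC.1, alone or with CO.1.

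Whole liver was sequenced, so that a larger number of cells of a type and more RNA per cell cannot be told apart. Of 20 measured Kupffer cell and macrophage markers, 19 were above 0 under both kinds of dam, against 31.3% of all genes. Of the 20, 2 were called higher (10.0%, against 1.94% of all genes). The called ones were Mpeg1, a pore-forming protein of phagocytes (0.90 ± 0.17, adjusted p = 0.0137), and Fcgr1, an Fc receptor (0.95 ± 0.23, adjusted p = 0.0397). The defining markers Clec4f and Adgre1 were present in every library and had log2 differences of 0.30 ± 0.14 (adjusted p = 0.27) and 0.35 ± 0.16 (adjusted p = 0.252). The summed level of the list was 838.7 to 909.1 in livers of obesogenic diet and 553.2 to 977.5 in livers of control diet, and OC.1 was the 1 control-diet liver that was not below the obesogenic range. The exception in sign was the scavenger receptor Cd163, at -0.70 ± 0.18 (adjusted p = 0.0524). Without OC.0 and CO.1 the macrophage list held 0 calls, with 5 without OC.1 and CO.1, 6 without OC.1, and 1 when CC.0, CC.2, CO.0, CO.1, OC.0, OC.2, OO.0 or OO.2 was left out alone. Of 24 lymphocyte markers, 5 were measured and 0 called by limma, edgeR or DESeq2 (2 with an unadjusted p under 0.05), with sums of 30.67 to 42.16 in livers of obesogenic diet and 21.56 to 63.67 in livers of control diet. The part of these cells in the rise of the interferon list was not tested.

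Hepcidin fell under both kinds of dam. Hamp had 58.7 and 62.9 in CO livers, against 416, 466.0 and 455 in CC livers, and 31.2, 106 and 98.7 in OO livers, against 289, 306 and 279 in OC livers. The highest liver of obesogenic diet, OO.1, stood below the lowest liver of control diet, and Hamp fell 5.36-fold, with a log2 difference of -2.42 ± 0.27 (SE, adjusted p = 0.000845). The difference was -2.86 under control dams and -2.07 under obesogenic dams. Bmp6, its inducer, had 2.0 and 2.4 in CO livers, against 6.82, 7.29 and 5.53 in CC livers, and 2.57, 2.21 and 3.1 in OO livers, against 6.23, 4.87 and 6.17 in OC livers. These are low values in every library, and the diets did not overlap, with a log2 difference of -1.17 ± 0.15 (SE, adjusted p = 0.00209). Both calls were kept in all 29 alternative settings. The proximal Hamp promoter (chr7:30944113-30944158, minus strand, GRCm38.p6), shown because Hamp and Bmp6 fell together, holds 1 match to the core of the BMP-responsive element, GGCGCC, which reads the same on both strands and is in capitals:
Hamp: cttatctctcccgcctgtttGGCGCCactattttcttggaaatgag
That core, which began 109 bases before the annotated start, occurred in 1944 of all 9179 promoters (21.2%) and in 22.3% of those of genes called lower.

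Of 34 measured genes of iron handling, 4 were called lower (11.8%, against 1.37%) and 2 higher (5.88%, against 1.94%). Slc40a1, the iron exporter ferroportin, averaged 169 ± 51.8 in livers of obesogenic diet and 256 ± 28.2 in livers of control diet (SD, n = 5 and 6), with a log2 difference of -0.67 ± 0.16 (SE, adjusted p = 0.0359). Ncoa4, the receptor that sends ferritin to lysosomes, fell with a log2 difference of -0.46 ± 0.10 (SE, adjusted p = 0.0294). The iron and zinc importer Slc39a14 rose with a log2 difference of 0.83 ± 0.18 (SE, adjusted p = 0.0272), and the metalloreductase Steap4 had 363 and 1116 in CO livers, against 56.3, 78.4 and 46.2 in CC livers, and 145, 164 and 209.8 in OO livers, against 67.5, 140.1 and 72.5 in OC livers. Steap4 was highest in CO.1 and rose with a log2 difference of 2.05 ± 0.44 (SE, adjusted p = 0.0263). Its difference was 3.43 under control dams and 0.95 under obesogenic dams, and the difference between dams had an unadjusted p of 0.00104 and an adjusted p of 0.936. Leaving out CC.0, CC.2, CO.0 or OC.0, or OC.0 with CO.1, left 0 of the 2 higher calls. The list held 2 lower calls without CC.0, CC.2, CO.0, CO.1 or OC.2, and Slc40a1 and Ncoa4 lost their calls when CO.1 was dropped with either OC.0 or OC.1, which also left 2 lower calls. Slc39a14 and Steap4 are also induced in the acute phase response, and the acute phase list was high in CO.1 and OC.1. The part of that in their rise was not tested.

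Several enzymes of nitrogen disposal fell. Of 12 measured urea cycle genes, 4 were called lower (33.3%, against 1.37% of all genes) and 0 higher. Asl, argininosuccinate lyase, had 426 and 200.4 in CO livers, against 1824, 907 and 1554 in CC livers, and 366, 207 and 323 in OO livers, against 859, 705 and 691 in OC livers. Livers of the 2 diets did not overlap under either dam, and Asl fell 3.36-fold, with a log2 difference of -1.75 ± 0.26 (SE, adjusted p = 0.00465). Arg1, arginase, had 792 and 742 in CO livers, against 2912, 1523 and 2156 in CC livers, and 766, 638 and 903 in OO livers, against 1376, 1587 and 1205 in OC livers, and it fell with a log2 difference of -1.13 ± 0.18 (SE, adjusted p = 0.00857). Cps1, which makes carbamoyl phosphate from ammonia, averaged 4063 ± 1264 in livers of obesogenic diet and 8741 ± 3039.8 in livers of control diet (SD, n = 5 and 6), with a log2 difference of -1.03 ± 0.24 (SE, adjusted p = 0.0355). Gls2, liver glutaminase, fell, at -0.87 ± 0.20 (adjusted p = 0.0383). Ass1 missed the threshold at -0.95 ± 0.25 (adjusted p = 0.0564), and Otc stood at -0.11 (adjusted p = 0.771). The list held 2 to 5 lower calls with 1 library left out and 1 without OC.0 and CO.1, and its median of -0.39 stayed between -0.43 and -0.36 in 18 alternative settings.

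Of 46 measured amino acid catabolism genes, 9 were called lower (19.6%, against 1.37% of all genes) and 0 higher. Etnppl, a phospholyase of phosphoethanolamine, had 63 and 13.8 in CO livers, against 345, 356 and 252 in CC livers, and 62.1, 71.9 and 75 in OO livers, against 365, 166 and 171 in OC livers, with a log2 difference of -2.42 ± 0.40 (SE, adjusted p = 0.00945). Every liver of obesogenic diet stood below every liver of control diet, and CO.1 was the lowest. Sds, serine dehydratase, had 41.7 and 60.7 in CO livers, against 149, 151 and 132 in CC livers, and 86.5, 36.8 and 63.9 in OO livers, against 114, 117 and 68.8 in OC livers, and the OO and OC livers overlapped, with OO.0 above OC.2. It fell with a log2 difference of -1.07 ± 0.23 (SE, adjusted p = 0.0272). The other called members were Got1 and Tat, transaminases of aspartate and tyrosine, at -1.29 ± 0.22 (adjusted p = 0.0103) and -1.2 ± 0.23 (adjusted p = 0.0166); Cth and Cbs of the transsulfuration pathway at -1.27 (adjusted p = 0.0149) and -0.59 (adjusted p = 0.0194); and Gnmt, Hal and Sdsl at -0.94, -1.15 and -1.07 (adjusted p = 0.0252, 0.0256 and 0.0103). The list's median was -0.46 for CO against CC and -0.12 for OO against OC. All 9 called members differed more under control dams, as did 315 of all 400 called genes. Without OC.0 and CO.1 the list held 1 lower call, without OC.1 and CO.1 it held 2, and with 1 library left out it held 4 to 10, the lowest without CO.0.

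Seen by position in the lobule, 8 of 19 measured periportal markers were called lower (42.1%, against 1.37% of all genes) and 0 higher. All 8 (Asl, Arg1, Etnppl, Sdsl, Hal, Sds, Cps1 and Gls2) also belong to the 2 lists above, so the lists are not independent. The periportal list's level was -0.43 and -0.75 in CO livers, against 0.28, 0.15 and 0.14 in CC livers, and -0.45, -1.14 and -0.43 in OO livers, against -0.15, -0.14 and -0.16 in OC livers (log2 against the control-diet mean). No liver of obesogenic diet reached a liver of control diet. Summed, the 19 markers came to between 10890 and 16960 in livers of obesogenic diet and between 18250 and 29140 in livers of control diet. Other periportal markers that did not pass include Cyp2f2 at 0.03 (adjusted p = 0.948) and Pck1, which makes phosphoenolpyruvate for gluconeogenesis, at -0.48 (adjusted p = 0.355). Of 23 pericentral markers, 2 were called lower (8.70%, against 1.37% of all genes), Cyp27a1 and Csad. Glul, glutamine synthetase of the cells nearest the central vein, missed the threshold at 0.42 ± 0.12 (adjusted p = 0.0846). Without OC.0 and CO.1, 2 periportal markers were called, with 5 without OC.1 and CO.1 and 4 to 10 with 1 library left out, the lowest without CC.0, CC.2, OC.0 or OO.1.

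**Figure D2:**
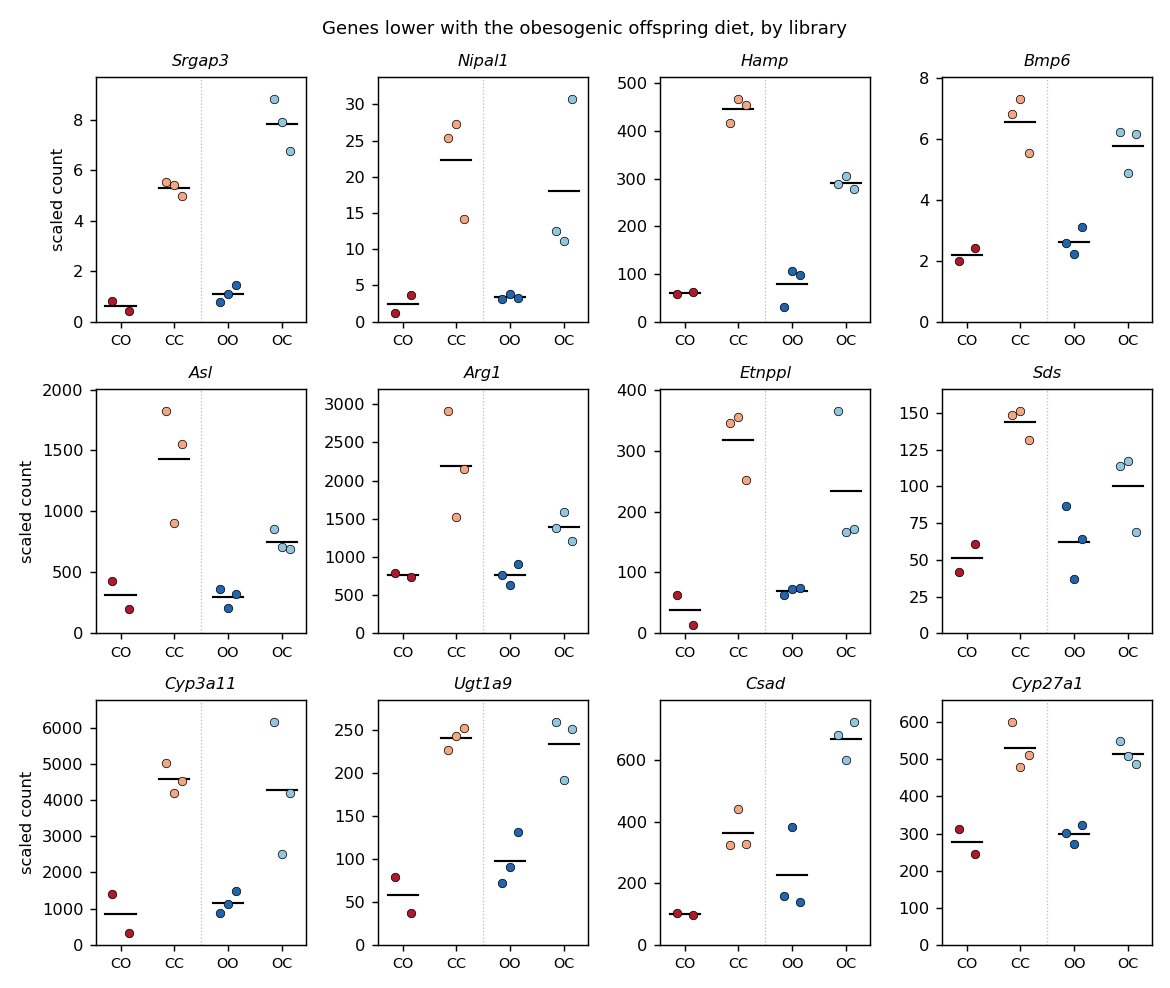
Scaled count (vertical axis, linear from 0) of 12 genes that were lower with the obesogenic offspring diet in each of the 11 libraries, by group (CO, CC, OO, OC). Points are libraries, horizontal lines are group means and the dotted line separates control from obesogenic dams. Srgap3, Hamp and Asl show no overlap between diets, whereas for Sds an OO liver at 86.5 lies above an OC liver at 68.8.

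Several drug-metabolising genes fell. Of 37 measured members of the cytochrome P450 list, 6 were called lower (16.2%, against 1.37% of all genes) and 0 higher. Cyp3a11, the main P450 of foreign compound and bile acid hydroxylation in mouse liver, had 1395 and 313 in CO livers, against 5030.1, 4206 and 4526 in CC livers, and 885, 1127 and 1474 in OO livers, against 6143, 2496 and 4206 in OC livers. The diets did not overlap, and it fell 4.76-fold, with a log2 difference of -2.25 ± 0.36 (SE, adjusted p = 0.00816). Cyp3a25 of the same family had 404 and 190.4 in CO livers, against 1162, 1035 and 1067 in CC livers, and 395, 321 and 496 in OO livers, against 1146, 575 and 853 in OC livers, and it fell with a log2 difference of -1.46 ± 0.25 (SE, adjusted p = 0.00945). Nr1i2, the nuclear receptor PXR that controls Cyp3a genes, averaged 77.5 ± 8.26 in livers of obesogenic diet and 98.8 ± 7.91 in livers of control diet (SD, n = 5 and 6), with a log2 difference of -0.36 ± 0.09 (SE, adjusted p = 0.0391). Cyp2c68, Cyp2j9 and Fmo2 also fell, at log2 differences of -0.75, -1.77 and -1.1 (adjusted p = 0.0112, 0.00951 and 0.0393), and Cyp2e1 stood at 0.26 (adjusted p = 0.539). P450 genes outside the list, looked at after their values were seen, were called in both directions. Higher calls include Cyp2d40, Cyp2j6 and the pseudogene Cyp2d37-ps, at 0.88, 0.42 and 0.64 (adjusted p = 0.0341, 0.029 and 0.022). Lower calls include Cyp4f13 at -0.35 (adjusted p = 0.0353). The list held 4 to 9 lower calls with 1 library left out, 2 without OC.0 and CO.1 and 3 without OC.1 and CO.1.

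Conjugation enzymes attach sugar or glutathione among others. Of 43 measured, 6 were called lower (14%, against 1.37% of all genes) and 1 higher (2.33%, near the 1.94% of all genes). Ugt1a9, a glucuronosyltransferase, had 78.6 and 37 in CO livers, against 227, 243 and 252 in CC livers, and 71.6, 91.2 and 131 in OO livers, against 259, 191 and 251 in OC livers, with a log2 difference of -1.67 ± 0.22 (SE, adjusted p = 0.0027). Gstm1, a glutathione transferase, had 181 and 131 in CO livers, against 688, 675 and 449 in CC livers, and 216, 373 and 504 in OO livers, against 672, 452 and 620.4 in OC livers, so that CO livers stood far below CC livers while the highest OO liver stood above the lowest OC liver. Gstm1 fell with a log2 difference of -1.27 ± 0.27 (SE, adjusted p = 0.0238), and its difference was -1.94 under control dams and -0.74 under obesogenic dams. Gsta4, Mgst3, Ugt2b35 and Gsta2 also fell, at log2 differences of -1.29, -1.22, -0.57 and -1.83 (adjusted p = 0.0124, 0.0253, 0.0103 and 0.0488), and Gsta2 was at 0 in CO.1. The 6 lower calls became 3 without CC.0, CO.0, CO.1 or OC.0 and 1 without OC.0 and CO.1 or without OO.0 and OO.1, and the higher call was lost without CO.0, CO.1 or OC.0. Among 28 antioxidant genes of the NRF2 type, 3 were called lower (10.7%, against 1.37% of all genes) and 0 higher. Htatip2, an oxidoreductase, had 13.2 and 15.3 in CO livers, against 38.5, 37.8 and 37.5 in CC livers, and 14.5, 17.4 and 15.8 in OO livers, against 34.7, 30.3 and 39.5 in OC livers, with a log2 difference of -1.23 ± 0.10 (SE, adjusted p = 6.53e-05), the second smallest p of the comparison, and Cbr1, carbonyl reductase, fell with a log2 difference of -1.48 ± 0.14 (SE, adjusted p = 0.000457). Ugdh, which makes UDP-glucuronate, fell with a log2 difference of -0.67 ± 0.15 (SE, adjusted p = 0.0298). The P450, Ugt, Gst and Ces families have near-identical copies, so values of single members are uncertain.

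Several bile acid genes fell. Of 28 measured, 6 were called lower (21.4%, against 1.37% of all genes) and 1 higher (3.57%, against 1.94%). Cyp27a1, the sterol 27-hydroxylase of the alternative synthesis pathway, had 312 and 244 in CO livers, against 599, 480.0 and 511 in CC livers, and 301, 273 and 323 in OO livers, against 550.1, 508 and 486 in OC livers, with a log2 difference of -0.85 ± 0.10 (SE, adjusted p = 0.00112). Values were close within each diet and did not overlap. Cyp39a1, an oxysterol hydroxylase, and Baat, which conjugates bile acids, fell, at -1.55 ± 0.23 (adjusted p = 0.00457) and -0.57 ± 0.10 (adjusted p = 0.0109). Klb, the coreceptor for FGF15, was at -0.61 ± 0.11 (adjusted p = 0.0113), and the exporter Abcc3 was at -1.12 ± 0.26 (adjusted p = 0.0351). A pair of uptake carriers of the organic anion family moved in opposite directions. Slco1a4 had 19.7 and 17 in CO livers, against 235, 89 and 94.7 in CC livers, and 10.1, 12.2 and 43 in OO livers, against 119, 44.9 and 72.5 in OC livers, and it fell with a log2 difference of -2.35 ± 0.39 (SE, adjusted p = 0.00945). Slco1b2 had 2487 and 2051 in CO livers, against 1215, 1511 and 1323 in CC livers, and 2246, 2064 and 2422 in OO livers, against 1319.9, 1607 and 1689 in OC livers, and it rose with a log2 difference of 0.64 ± 0.13 (SE, adjusted p = 0.0185). Cyp7a1, the rate-limiting enzyme of bile acid synthesis, varied widely within groups, averaged 106 ± 114 in livers of obesogenic diet and 304 ± 198 in livers of control diet (SD, n = 5 and 6), and missed the threshold at -1.79 ± 0.59 (adjusted p = 0.125). With 1 library left out the list held 5 to 8 lower calls, and 1 without OC.0 and CO.1, 4 without OC.1 and CO.1 and 3 without OO.0 and OO.1. The higher call was lost without CC.2 or CO.0.

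Cholesterol synthesis genes were mostly below 0, but few passed the test. Of 26 measured genes, 21 were below 0 under both kinds of dam, against 32.1% of all genes. Of the 26, 2 were called lower (7.69%, against 1.37% of all genes). Hsd17b7, a ketoreductase of the pathway, had 43.8 and 52.2 in CO livers, against 91.3, 76.7 and 91.3 in CC livers, and 43.7, 47.6 and 49.5 in OO livers, against 88.6, 103 and 75.3 in OC livers, and it fell with a log2 difference of -0.88 ± 0.10 (SE, adjusted p = 0.000756). Tm7sf2, a sterol reductase, fell with a log2 difference of -1.02 ± 0.16 (SE, adjusted p = 0.00588). The difference of Hsd17b7 was -0.84 under control dams and -0.91 under obesogenic dams, and that of Tm7sf2 was -1.03 under control dams and -1.01 under obesogenic dams. Of these 2, Hsd17b7 alone was called without OC.0 and CO.1. The list's median was -0.20 for CO against CC and -0.87 for OO against OC, with no interaction call for any member. OC.1, the liver of control diet with the high acute phase list, had a cholesterol synthesis level of 1.0, against -0.02 and 0.05 in OC.0 and OC.2, and Sqle, squalene epoxidase, at -0.04 under control dams and -2.1 under obesogenic dams, did not pass the test (adjusted p = 0.293). Among 28 lipoprotein genes, 3 fell (10.7%, against 1.37% of all genes) and 1 rose (3.57%, against 1.94%). Tm6sf2, Pltp and Apoa5 fell, at -0.91, -0.57 and -0.49 (adjusted p = 0.00969, 0.0353 and 0.0272). Abca1, the exporter that lipidates apolipoprotein A-I, had 478 and 676 in CO livers, against 339, 309.7 and 337 in CC livers, and 438, 369 and 432 in OO livers, against 329.9, 297 and 244 in OC livers, and it rose with a log2 difference of 0.64 ± 0.12 (SE, adjusted p = 0.0137). The lipoprotein list held 1 lower call without CC.0, CC.1, CC.2, CO.0, CO.1, OC.2 or OO.1, and 0 once OC.0 and CO.1 were both left out.

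Fuel metabolism showed few calls. The lists of lipogenesis (22 measured), lipid droplets (23) and nuclear-encoded oxidative phosphorylation (74) each held 0 calls by limma and by edgeR. DESeq2 called 4, 0 and 1 of them, and 4, 5 and 18 had an unadjusted p under 0.05. Of the 18 in oxidative phosphorylation, 17 were lower. Of its 74 genes, 44 were below 0 under both kinds of dam (59.5%, against 32.1% of all genes) and 2 above 0 (2.7%, against 31.3%). The median of that list was -0.25 for CO against CC and -0.02 for OO against OC. Fasn, fatty acid synthase, missed the threshold at -0.65 ± 0.20 (adjusted p = 0.104). The nearest in lipogenesis were Me1, malic enzyme, at -0.67 (adjusted p = 0.0579) and Mlxipl, the carbohydrate-responsive factor ChREBP, at 0.54 (adjusted p = 0.0665), in lipid droplets Hsd17b13 and Plin5 at -0.38 and -0.66 (adjusted p = 0.131 and 0.139), and in oxidative phosphorylation Sdhd and Cyc1 at -0.37 and -0.31 (adjusted p = 0.0588 and 0.116). Of 42 fatty acid oxidation genes, 2 were called higher (4.76%) and 0 lower. Vnn1, a pantetheinase and known PPARα target, had 231 and 234 in CO livers, against 88, 105 and 140.4 in CC livers, and 283, 245 and 243 in OO livers, against 71.7, 61.9 and 183 in OC livers, with a log2 difference of 1.29 ± 0.24 (SE, adjusted p = 0.0131). In Vnn1 the diets did not overlap under either dam. The fatty acid oxidation list held 0 calls without OC.0 and CO.1 and without OO.0 and OO.1, and 1 without OC.1 and CO.1. Of 21 fatty acid uptake genes, 2 were called higher (9.52%, against 1.94% of all genes) and 1 lower (4.76%, against 1.37%). Fabp2 and Fabp5 rose by 0.80 and 1.91 (adjusted p = 0.0231 and 0.0413) and Acsl3 fell, at -0.66 (adjusted p = 0.0294), and none of the 3 was called when CO.0 or CO.1 was left out.

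In carbohydrate metabolism, 2 of 16 gluconeogenesis genes fell (12.5%, against 1.37% of all genes) and 0 rose. G6pc, the catalytic subunit of glucose-6-phosphatase, had 272 and 173 in CO livers, against 639, 614 and 535 in CC livers, and 599, 205 and 197 in OO livers, against 807, 527 and 569.6 in OC livers, with OO.0 far above the other OO livers. It fell with a log2 difference of -1.26 ± 0.26 (SE, adjusted p = 0.0237). Slc37a4, which carries glucose 6-phosphate to that enzyme, fell with a log2 difference of -0.84 ± 0.18 (SE, adjusted p = 0.0238), and neither was called without CO.0, without CO.1, or without CO.1 and either OC.0 or OC.1. Of 24 glycolysis and fructose genes, 2 fell (8.33%, against 1.37% of all genes) and 0 rose. Tkfc, triokinase, and Pdk1, a kinase that restrains pyruvate dehydrogenase, were at -0.78 ± 0.13 (adjusted p = 0.00857) and -0.48 ± 0.12 (adjusted p = 0.0448). Of 24 insulin signalling and glycogen genes, 1 was called higher and 1 lower (4.17% each, against 1.94% and 1.37%). Ppp1r3c, which targets a phosphatase to glycogen, had 12.8 and 26.4 in CO livers, against 77.8, 112 and 83.1 in CC livers, and 56.3, 65.5 and 43.1 in OO livers, against 142, 134 and 71.2 in OC livers, and it fell with a log2 difference of -1.57 ± 0.28 (SE, adjusted p = 0.0111). Pik3r1, the regulatory subunit of PI3-kinase, rose by 0.46 ± 0.11 (adjusted p = 0.0359). Neither Ppp1r3c nor Pik3r1 was called without OC.0 and CO.1.

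**Figure D3:**
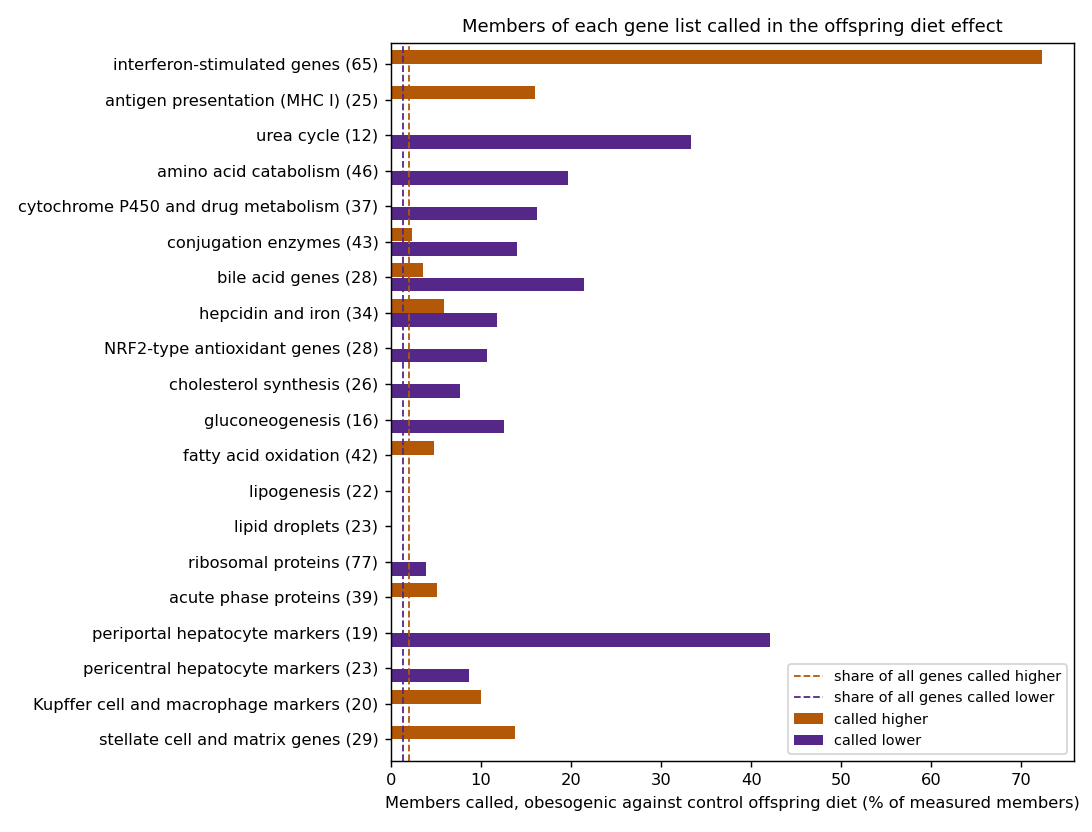
Share of measured members called higher (orange) or lower (purple) in the offspring diet effect for 20 gene lists, as % of the measured members given in brackets; dashed lines mark the shares of all genes, 1.94% and 1.37%. The interferon list stands at 72.3% higher, the periportal list at 42.1% lower and the urea cycle list at 33.3% lower.

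Cytosolic ribosomal proteins shifted slightly and broadly. Of 77 measured, 65 were below 0 under both kinds of dam, against 32.1% of all genes, and the median was -0.19. Of the 77, 3 were called lower (3.90%, against 1.37% of all genes), Rps6, Fau and Rpl7a at -0.35, -0.29 and -0.28 (adjusted p = 0.0238, 0.0411 and 0.0461). The median stayed between -0.23 and -0.12 in 18 alternative settings, other scalings included. Fau and Rpl7a lost their calls whichever single library was left out, and Rps6 kept its call in 8 of 11 such fits and in none with a pair of libraries left out. Among 22 clock genes, 1 rose and 1 fell (4.55% each, against 1.94% and 1.37% of all genes). Bhlhe41 rose by 1.21 ± 0.24 (adjusted p = 0.0189) and Arntl fell, at -1.35 ± 0.32 (adjusted p = 0.0421), and neither was called without CO.1. Of 30 immediate early and stress genes, 3 fell (10.0%, against 1.37% of all genes) and 0 rose. Of these calls 1 was left when CO.1 was dropped with either OC.0 or OC.1. Gadd45b, a stress-inducible gene, had 0.833 and 0.873 in CO livers, against 9.35, 4.49 and 4.01 in CC livers, and 1.67, 2.21 and 1.96 in OO livers, against 10.5, 2.74 and 16 in OC livers. Its values in CO livers stand for few reads, and it fell with a log2 difference of -1.95 ± 0.36 (SE, adjusted p = 0.0137). The glucocorticoid-inducible genes Fkbp5 and Sgk1 were at -0.96 and -0.57 (adjusted p = 0.0256 and 0.0432).

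Several inflammatory genes were highest in CO.1. Cxcl1, a neutrophil-attracting chemokine, had 4.17 and 57.4 in CO livers, against 0.476, 1.87 and 1.24 in CC livers, and 26.9, 7.74 and 10.6 in OO livers, against 2.23, 4.71 and 1.76 in OC livers, with CO.1 the highest and no overlap under either dam. It had a log2 difference of 2.66 ± 0.58 (SE, adjusted p = 0.0272) and lost its call without CC.0, CC.2, OC.0, OC.2 or OO.0. The acute phase list had a median of 1.25 for CO against CC and -0.06 for OO against OC. Of its 39 measured members, 2 were called higher (5.13%, against 1.94% of all genes). They were Il1rn, the interleukin-1 receptor antagonist (1.67 ± 0.32, adjusted p = 0.0162), and Saa4 (1.35 ± 0.31, adjusted p = 0.0376). The list held 5 higher calls without OC.1, 4 without OC.1 and CO.1, 1 when CC.0, CC.1, CC.2, CO.0, CO.1 or OC.0 was left out alone, and 0 once OC.0 and CO.1 were both left out. Saa1, a serum amyloid, had 389 and 5045 in CO livers, against 25.7, 21.3 and 36.1 in CC livers, and 22.5, 298 and 86.6 in OO livers, against 65.2, 3415 and 14.4 in OC livers, with high values in CO.1 and OC.1, and did not pass the test (adjusted p = 0.505). S100a8, made by neutrophils, rose by 1.54 ± 0.36 (adjusted p = 0.038) but was not called without CO.1, and the 4 measured neutrophil markers summed to 10.95 to 43.66 in livers of obesogenic diet and 7.325 to 14.8 in livers of control diet. The stellate cell and matrix list had 4 of 29 members called higher (13.8%, against 1.94% of all genes). These were Thbs1, Col4a1, Col5a2 and Col14a1, at 1.0, 0.62, 0.81 and 0.41 (adjusted p = 0.00945, 0.0248, 0.0391 and 0.0467). The list had 24 of 29 members above 0 under both dams (82.8%, against 31.3% of all genes). Without CC.2, CO.0, CO.1 or OC.0, and without OC.0 and CO.1, it held 1 call, with 2 without CC.0, OO.1, OO.2 or the pair of OC.1 and CO.1, and 7 without OC.1. Its summed level was 961 to 1258 in livers of obesogenic diet and 789.7 to 1031 in livers of control diet. The 24 endothelial markers held 0 calls by limma, edgeR or DESeq2, 3 with an unadjusted p under 0.05, and a median of -0.02.

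**Figure D4:**
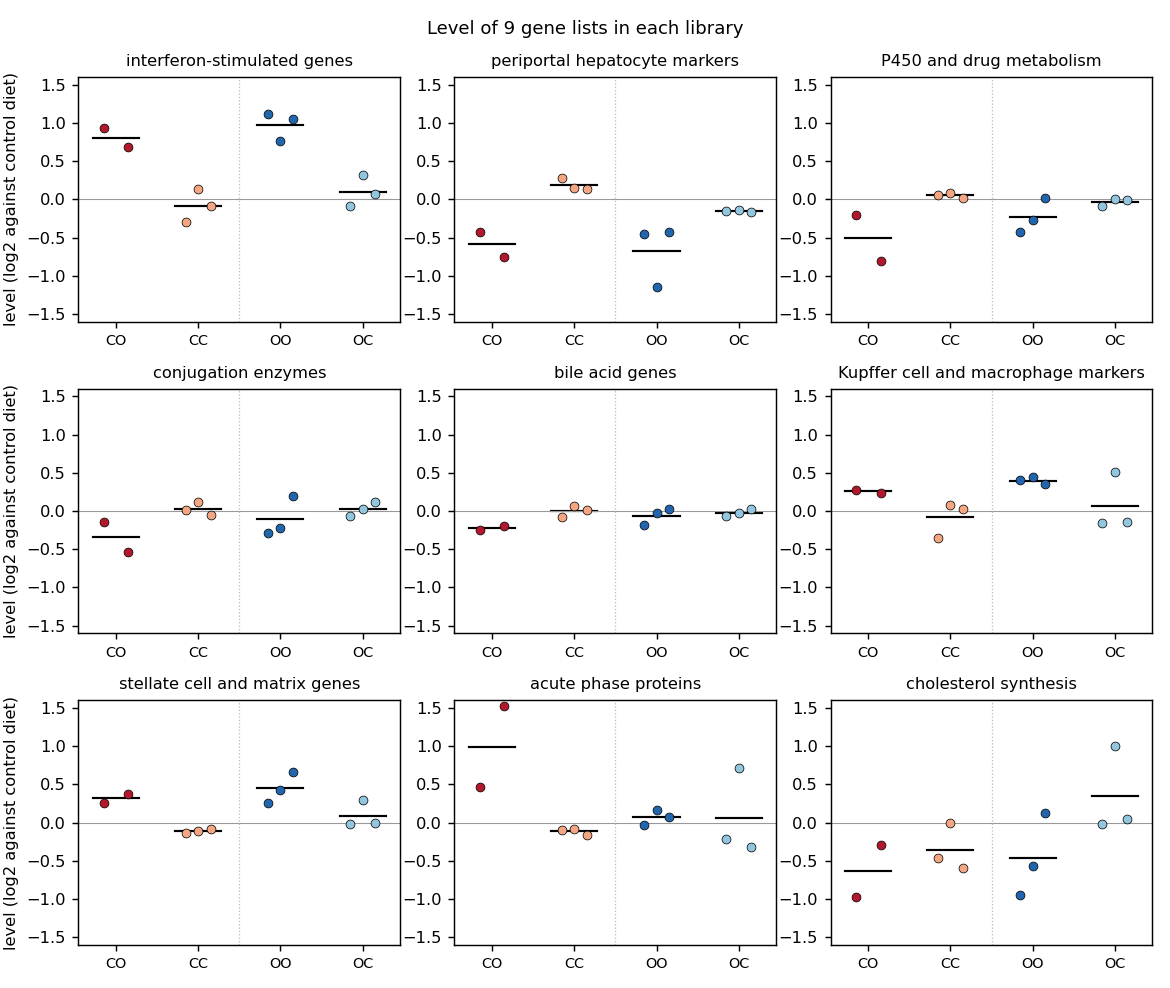
Median level of 9 gene lists in each of the 11 libraries, as log2 against the mean of the 6 control-diet libraries (vertical axis), by group (CO, CC, OO, OC); points are libraries and horizontal lines group means. The interferon and periportal lists separate the 2 offspring diets under both kinds of dam, whereas the acute phase list is high in CO.1 (1.52) and OC.1 (0.71).

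Some of the largest differences lay outside these lists or in single members of other lists. Srgap3, a GTPase-activating protein, had the smallest p of the 12080 genes, with 0.833 and 0.437 in CO livers, against 5.55, 5.42 and 4.98 in CC livers, and 0.768, 1.11 and 1.47 in OO livers, against 8.81, 7.91 and 6.75 in OC livers. The value of CO.1 is below its 3-read floor of 0.655, and the log2 difference of -2.38 ± 0.17 (adjusted p = 1.82e-05) was -2.38 under control dams and -2.38 under obesogenic dams. Nipal1, a magnesium transporter, had 1.17 and 3.71 in CO livers, against 25.4, 27.3 and 14.2 in CC livers, and 3.07, 3.87 and 3.27 in OO livers, against 12.5, 11.1 and 30.7 in OC livers, with a log2 difference of -2.53 ± 0.32 (SE, adjusted p = 0.00208). Csad, the decarboxylase of taurine synthesis, had 104 and 97.1 in CO livers, against 324, 441 and 328 in CC livers, and 159.9, 383 and 141 in OO livers, against 683, 598 and 722 in OC livers, so that OO.1 stood apart from the other OO livers yet below all OC livers. It fell with a log2 difference of -1.76 ± 0.21 (SE, adjusted p = 0.00149). Among the rises, Onecut1, a hepatocyte and biliary transcription factor, had 66.5 and 51 in CO livers, against 5.38, 13 and 3.34 in CC livers, and 15.2, 30.7 and 24.4 in OO livers, against 5.7, 14.6 and 7.68 in OC livers, with a log2 difference of 2.13 ± 0.40 (SE, adjusted p = 0.014). Rarres1, a retinoic acid-responsive gene, and Nudt7, a peroxisomal coenzyme A hydrolase, rose by 1.76 ± 0.29 (adjusted p = 0.00857) and 1.51 ± 0.27 (adjusted p = 0.0125). The other large rises named by the rule were Slc37a1, Atp11a, Ifi27l2b, Nrep and Adh6-ps1, at 1.98, 1.84, 1.84, 1.68 and 1.57 (adjusted p = 0.013, 0.0137, 0.0352, 0.0275 and 0.0207), and the remaining large fall was Ces1b, a carboxylesterase, at -1.38 ± 0.20 (adjusted p = 0.00439). In the remaining lists 1 or a few members were called, where 1.94% of all genes were called higher and 1.37% lower. Chac1, an enzyme of glutathione breakdown, was the 1 call among 35 genes of the endoplasmic reticulum stress list (2.86%) and rose by 1.56 ± 0.34 (adjusted p = 0.0272). C4a, a complement component with a near-identical copy, was the 1 call among 44 complement and coagulation genes (2.27%) and rose by 2.12 ± 0.42 (adjusted p = 0.0172). Of 34 solute carriers and exporters, 3 were called higher and 3 lower (8.82% each). The anion carriers Slc22a7 and Slc17a3 rose by 1.31 and 0.64 (adjusted p = 0.037 and 0.0252) and the prostaglandin carrier Slco2a1 fell, at -0.96 (adjusted p = 0.0232), beside the bile acid carriers above. Of 25 metal transport genes, 2 were called higher (8.0%) and 1 lower (4.0%). Slc41a2, a magnesium transporter, rose by 1.74 (adjusted p = 0.0492) while Nipal1 fell. Of 32 genes of 1-carbon metabolism, 1 was called higher (3.12%) and 3 lower (9.38%). Mat2a, which makes S-adenosylmethionine, rose by 0.36 (adjusted p = 0.0474), and Gnmt, Cbs and Cth fell as given above. Of 10 lipid-associated macrophage markers 1 rose, Fabp5 as given above, and 1 fell, the receptor Trem2 at -1.12 (adjusted p = 0.0432), with a list median of 0.16. Trem2 kept its call in 2 of 11 fits with 1 library left out. Cxcl12, a chemokine of stromal cells, fell, at -0.39 (adjusted p = 0.0248). Without OC.0 and CO.1 the endoplasmic reticulum stress, complement, solute carrier, 1-carbon and lipid-associated macrophage lists held 0 calls. Without OC.1 and CO.1 the endoplasmic reticulum stress and 1-carbon lists held 0 calls, and the complement list held 5 higher calls. The lists of autophagy and lysosome genes (36 measured), growth hormone and IGF genes (16) and cell cycle genes (18) held 0 calls by limma and by edgeR, 2, 0 and 1 by DESeq2, and 6, 5 and 5 genes with an unadjusted p under 0.05.

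The differences under the 2 kinds of dam were then set side by side. CO against CC called 214 genes (1.77%) and OO against OC called 14 (0.116%), with 13 called in both and 245 of the 400 called in neither alone. With 1 library left out these counts ran between 17 (without CC.2) and 231 (without OO.2) for CO against CC and between 2 (without OC.0) and 24 (without CO.1) for OO against OC. The 6 genes set aside had entered the adjustment. With them not tested, OO against OC called 11 genes and CO against CC again 214. Of the 122 genes called higher in CO, 119 had the same sign for OO against OC and 83 had an unadjusted p under 0.05 the same way (68.0%, against 4.59% of all genes). Of the 92 called lower, 88 had the same sign and 52 passed (56.5%, against 3.37%), and 0 genes of either set passed the opposite way. CO and CC share no library with OO and OC, so the 2 comparisons are separate samples, though fitted with 1 estimate of spread per gene. A gene with a low estimate passes more readily in both comparisons, so the shares of all genes are not a matched baseline. Over all genes the signs were the same for 63.4%. The effect was larger under control dams for 180 of the 234 called higher and 135 of the 166 called lower, and for 27 of 47 called interferon members, 9 of 9 amino acid catabolism members, 7 of 7 bile acid members and 6 of 6 P450 members. These genes were picked by calls from the same libraries, and 315 of all 400 called genes were larger under control dams. The counts of amino acid, bile acid and P450 members therefore do not set them apart from called genes in general. The median difference between dams, OO minus OC less CO minus CC, was -0.08 in called interferon members, 0.56 in called amino acid catabolism members and 0.68 in called P450 members (log2). In the interferon members differences of both signs offset each other, 27 being larger under control dams and 20 under obesogenic dams. Taken without sign, the median was 0.23, 0.56 and 0.68 in these lists, against 0.27 in all 400 called genes. By size the called interferon members were therefore close to called genes in general.

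The difference between dams was tested for each gene as the interaction of offspring and maternal diet. Of 12080 genes, 0 were called (0.0%) by limma and by edgeR, 2 by DESeq2 (Steap4 and Gm9968), and 547 had an unadjusted p under 0.05, among them 20 of the 234 and 17 of the 166. Of the 47 called interferon members, 0 had an unadjusted interaction p under 0.05. Gas1, a growth arrest gene, had the smallest adjusted p, 0.0842, with 3.5 and 3.49 in CO livers, against 12.4, 12.5 and 12.6 in CC livers, and 7.75, 8.85 and 9.8 in OO livers, against 11.4, 11.3 and 12 in OC livers. Its difference was -1.7 under control dams and -0.38 under obesogenic dams. P4ha2, Gm9968, Hist1h3e and Zfp467 followed with unadjusted interaction p of 0.000474, 0.000508, 0.000704 and 0.000976 (adjusted p = 0.877, 0.877, 0.936 and 0.936). The 95% interval of the interaction, not adjusted for the number of genes, had a median half-width of 0.65 (log2) in the 400 called genes. For the typical called gene a call would need a difference between dams larger than that. Gas1 missed the threshold with -1.7 under control dams and -0.38 under obesogenic dams. The absence of a call does not show that the effects are equal.

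**Figure D5:**
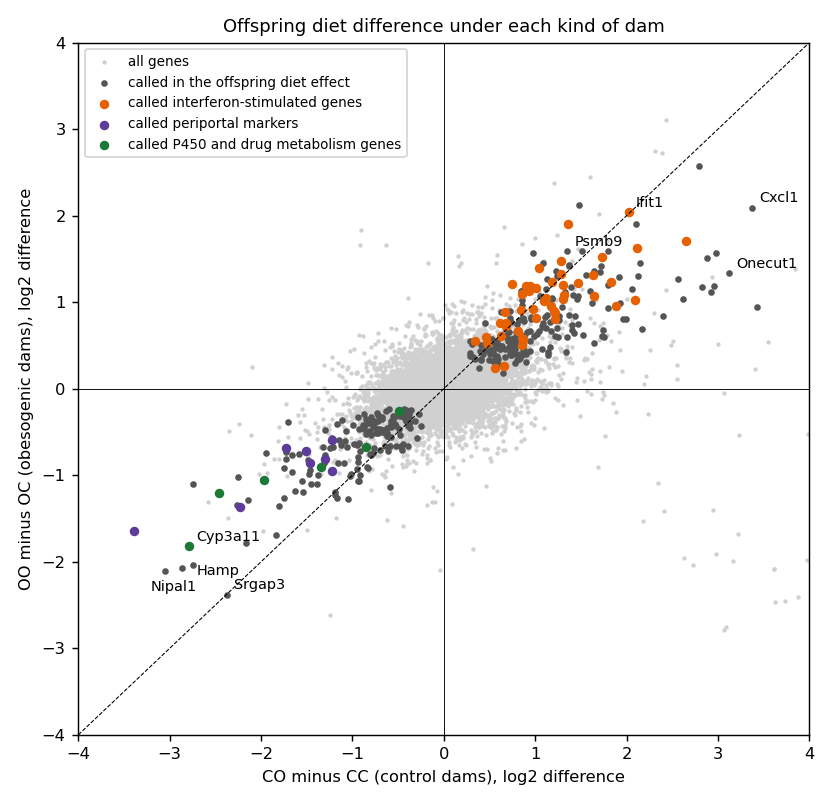
Log2 difference CO minus CC (horizontal axis) against OO minus OC (vertical axis) for each gene; 8 genes outside ±4 are not drawn, and the dashed line marks equal differences. Called interferon-stimulated genes (orange) scatter around the line with Ifit1 at 2.03 and 2.04. Called periportal (purple) and P450 (green) genes lie above the line, the side of larger falls under control dams, as do 135 of all 166 genes called lower.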

How the data were processed

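RNA sequencing of liver from 11 libraries was used. The authors deposited 1 table of signal values, scaled gene counts, and per the file header each column is 1 alignment file. Per the submitters' processing notes, reads were aligned with Bowtie 1.2.3 and build mm8 was named. Read counter, annotation, strand setting, scaling and filters remain not given in the sources used here. Genes carry Ensembl identifiers, of which 11965 of 12086 matched a symbol. Low values are whole multiples of 1 read per library: 95.13% to 97.32% of values came out whole within 0.01 of a read, so depth could be recovered. The column names give the group but no labelled sample, so libraries are numbered as in the header.

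Values were analysed with limma 3.58.1 (R 4.3.3) as log2(value + 0.5) with an intensity trend, maternal diet and offspring diet as terms, and Benjamini-Hochberg adjustment over 12086 genes at 0.05. Fold changes on this scale understate the change of low genes. Simple contrasts and the interaction came from a fit with 1 mean per group. The filter of a value of 1 in 3 libraries was met by all genes. A count model on the recovered reads, edgeR 4.0.16, called 381 genes and DESeq2 1.42.0 called 757. Other scalings, pseudocounts, filters, variance models and libraries left out were tried. The limma step was tested on simulated data with known changes.

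The comparison, the gene lists and the tests were chosen with earlier results of these data known. Genes are named by rule: the 15 largest rises and 15 largest falls among called genes with a mean of at least 5 and no overlap under either dam, up to 6 members of each list by p, and the 5 smallest interaction p. List members and cell type genes named beyond that were chosen after their values were seen. Libraries of a group differed by more than sampling noise (chi-square per gene 11.8 to 388), so none was merged. Nothing says that livers of a group came from separate litters, so p-values measure the spread between these livers. Some called genes are not reported here. Members of near-identical gene families are uncertain. Promoter letters come from RefSeq, build GRCm38.p6, which is not the build of the notes, and were matched by symbol, with no coordinates carried over.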

Additional observations from a re-analysis of the deposited data

Results flagged for a closer look

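Of the 6 genes set aside for values of exactly 0, 4 were at 0 in the 3 OO livers alone, and their difference of the offspring diet effect between kinds of dam passed the limma test. Serpina1b had an adjusted p of 1.36e-12, with 2679 and 2082 in CO livers, against 2559, 2581 and 2607 in CC livers, and 0, 0 and 0 in OO livers, against 2116, 2452 and 2298 in OC livers. Serpina1d had an adjusted p of 2.89e-11, with 1340.3 and 876 in CO livers, against 1419, 1434 and 1221 in CC livers, and 0, 0 and 0 in OO livers, against 1225, 1209 and 1128 in OC livers. Gm8893 had an adjusted p of 0.00198, with 10.8 and 9.82 in CO livers, against 6.66, 20.8 and 13.5 in CC livers, and 0, 0 and 0 in OO livers, against 13.9, 16.3 and 11.9 in OC livers. Gm24105 had an adjusted p of 6.94e-08, with 92.3 and 56.5 in CO livers, against 68.2, 89.8 and 74.4 in CC livers, and 0, 0 and 0 in OO livers, against 66.3, 97 and 80.7 in OC livers. The other 2 were listed at 0 in every liver of obesogenic diet: mt-Rnr2, the large mitochondrial ribosomal RNA, had 0 and 0 in CO livers, against 50664, 43529 and 51009 in CC livers, and 0, 0 and 0 in OO livers, against 43306, 45424 and 45089 in OC livers, and Mup17, a major urinary protein, had 0 and 0 in CO livers, against 107, 426 and 754 in CC livers, and 0, 0 and 0 in OO livers, against 191, 1416 and 432 in OC livers. Genes that every liver uses are among these 6, so a listed 0 may be a failed estimate, and no fold is given.

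A library far from the others of its diet, by Dixon's test on the list levels (log2 against the control-diet mean), was found in 8 of 108 tests, where chance gives about 1 in 20. Among livers of obesogenic diet these were OO.2 in fatty acid uptake (0.24) and in immediate early and stress genes (-0.21), CO.1 in lipoproteins (-0.36) and OO.1 in endothelial markers (0.15). Among livers of control diet they were OC.1 in acute phase proteins (0.71) and in stellate cell and matrix genes (0.29), OC.0 in lipoproteins (-0.12) and CC.0 in hepatocyte transcription factors (-0.18).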

How the results depend on the processing

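Of the called genes named by rule, 113, none changed direction in the alternative settings that gave a value (28 settings for 4 genes and 29 for 109), and 53 kept their call with each single library left out. Of the 400 calls, 393 were among 757 with DESeq2, 356 among 381 with edgeR, 359 among 618 with library weights, 55 among 59 without OC.0 and CO.1, 168 among 207 without OC.1 and CO.1 and 196 among 237 without OO.0 and OO.1. Thresholds of 0.01 and 0.1 gave 78 and 770 genes, and leaving out 1 library gave 179 to 484. Genes called higher, 234 as reported, numbered 429 with DESeq2, 38 without OC.0 and CO.1, 145 without OC.1 and CO.1, 152 without OO.0 and OO.1, 50 and 431 at thresholds of 0.01 and 0.1, and 112 to 297 with 1 library left out. Genes called lower, 166 as reported, numbered 328 with DESeq2, 275 with weights, 21, 62 and 85 with the same pairs left out, 28 and 339 at the other thresholds, and 67 to 201 with 1 left out. CO against CC, 214 as reported, gave 464 with DESeq2, 106 without a trend, 103 with voom, 15 without OC.0 and CO.1, 12 without OC.1 and CO.1, 13 and 470 at the other thresholds, and 17 to 231 with 1 left out. OO against OC, 14 as reported, gave 100 with DESeq2, 118 with weights, 5 without a trend, 25 with voom, 6 without OC.0 and CO.1, 29 without OC.1 and CO.1, 2 and 24 at the other thresholds, and 2 to 24 with 1 left out. It gave 11 when the genes set aside were not tested. The interaction, 0 as reported apart from genes set aside, gave 2 with DESeq2, 1 without a trend, 1 at a threshold of 0.1, and 0 to 1 with 1 left out. Settings that drop libraries test fewer samples; for the others the cause was not tested. Of uncalled genes, Zbtb46 (-0.23) became 0.01 without OC.0 and CO.1, and Fabp4 (0.81) became -0.05 without OC.1 and CO.1. Cpb1 (0.75) became -1.15 with DESeq2, -1.0 with edgeR, -1.66 without OC.1 and CO.1, and -0.76 to 2.27 with 1 left out, and Cel (0.67) became -1.39, -1.19, -1.98, and -0.89 to 2.22. Median-of-ratios and quantile scaling moved the median of all genes by -0.00222 and -0.0131 (log2). Counts of list members under these settings were added after seeing the data. No paired analysis was possible because the columns carry no replicate number of the labels. With 2 CO livers, and OO.1 at 3976160 reads, small differences in low genes were not detectable.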

Other observations

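Of the 400 called genes, 257 belong to none of the 54 lists, and 65 of these kept their call with each single library left out. The genes below were chosen after their values were seen. Of them Ube2l6, Zc3hav1, Csf2rb, Fas, Siglec1, St6gal1, St3gal3, Col6a3, Glce, Serpina12, Ces2a and Maoa kept their call with each single library left out, and the others lost it without at least 1 library. They form no fixed list, and genes of like function were called in both directions. Ube2l6 and Uba7, which attach ISG15 to proteins, rose by 1.04 ± 0.15 and 0.89 ± 0.20 (log2, SE, adjusted p = 0.00369 and 0.0332). The antiviral genes Zc3hav1, Ifitm3, Plscr1 and Ddx60 rose by 0.67, 0.97, 0.84 and 1.27 (adjusted p = 0.00439, 0.0185, 0.0153 and 0.014). Among receptors of immune signals, higher calls include Csf2rb, the shared subunit of the GM-CSF receptor, by 1.11 (adjusted p = 0.00532), Fas by 0.66 (adjusted p = 0.0138), Tnfrsf1a by 0.65 (adjusted p = 0.0313) and Ifngr2 by 0.47 (adjusted p = 0.0405), and lower calls include Il22ra1 at -1.01 (adjusted p = 0.0237) and the chemokine scavenger Ackr2 at -0.75 (adjusted p = 0.0414). Siglec1, a macrophage lectin, rose by 0.71 (adjusted p = 0.00969), and Cd274, the checkpoint ligand PD-L1, by 1.0 (adjusted p = 0.0237), with 3.83 and 2.62 in CO livers, against 1.11, 0.748 and 1.38 in CC livers, and 3.71, 5.81 and 6.21 in OO livers, against 3.64, 2.13 and 2.5 in OC livers. Cd274 did not overlap between diets under either kind of dam.

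Among enzymes that build or trim glycans, higher calls include the sialyltransferases St6gal1 (0.94 ± 0.15, adjusted p = 0.00857) and St3gal3 (0.83 ± 0.12, adjusted p = 0.00445) and the galactosyltransferase B4galt1 (0.55 ± 0.12, adjusted p = 0.0238), and lower calls include Glce (-0.57, adjusted p = 0.014) and Man1a2 (-0.38, adjusted p = 0.0323). St6gal1 had 93.8 and 155 in CO livers, against 43.1, 65.6 and 45.9 in CC livers, and 102, 116 and 117 in OO livers, against 68.1, 67.2 and 69.3 in OC livers, without overlap between diets under either dam. Among matrix genes outside the stellate list, higher calls include Col6a3 by 0.94 (adjusted p = 0.0149), the collagen chaperone Serpinh1 by 1.1 (adjusted p = 0.0237) and Emilin1 by 0.58 (adjusted p = 0.0238), and lower calls include Itih5 at -0.60 (adjusted p = 0.0252), Adamts7 at -0.86 (adjusted p = 0.0486) and Sdc1 at -0.57 (adjusted p = 0.0461). Serpina12, which encodes the secreted protein vaspin, rose with a log2 difference of 1.46 ± 0.23 (SE, adjusted p = 0.00688). Among falls were the carboxylesterases Ces2a and Ces1c (-1.21 and -0.63, adjusted p = 0.00457 and 0.0351), Maoa, which breaks down monoamines (-0.86 ± 0.16, adjusted p = 0.0141), and Idh2, the mitochondrial isocitrate dehydrogenase that makes NADPH (-0.54 ± 0.11, adjusted p = 0.0209). Ces2a differed by -1.19 under control dams and -1.23 under obesogenic dams, and Maoa by -1.13 under control dams and -0.65 under obesogenic dams.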
